A study of Rattus norvegicus with 4 samples.

Results

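Expression of lysosomal enzymes, lysosomal membrane proteins and the subunits of the vacuolar proton pump was followed in 4 arrays of rat mammary gland. The genes were taken from a list of 37 lysosomal genes, and a gene was kept where a probe set on the array carried its symbol and no other. This gave 36 genes on 50 probe sets, out of 14217 genes on the 20826 probe sets with 1 symbol. The array had 31099 probe sets in all. Npc1 had no such probe set and is not analysed here. Of the 36 genes, 23 had 1 probe set, 12 had 2 and 1 had 3, and all 36 lay above the floor signal of 91.5 in all 4 arrays.

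One array was made for each group. The groups were Sprague-Dawley rats (SDR) on day 1 of involution, homozygous Hirosaki hairless rats (HHR) on day 1 of lactation, heterozygous HHR on day 1 of lactation, and SDR on day 1 of lactation. The Hirosaki hairless rat is a mutant strain that lacks a normal coat. The labels give neither the age of the animals, nor whether RNA was pooled, nor how long the SDR dams had nursed before involution. Involution and the unknown stage at which nursing ended cannot be told apart in these arrays. Because each group is 1 array, differences are described by their size alone, without error or test.

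Lysosomes are acidic organelles in which hydrolases break down proteins, glycans and lipids delivered by endocytosis and autophagy. The acid comes from the vacuolar ATPase, a rotary pump whose cytosolic V1 sector splits ATP and whose membrane V0 sector carries the protons. When milk removal stops, the secretory epithelium of the gland dies and is cleared, and in the mouse the first phase of that death runs through leaky lysosomes downstream of Stat3. In this tissue lysosomal transcripts can come from epithelium, from macrophages or from other stroma, and in bulk RNA a change in the number of cells of a type cannot be told apart from a change in RNA per cell.

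All 6 milk protein genes measured were bright in every array, with beta-casein (Csn2) at 43743 in SDR involution, 46514 in homozygous HHR, 55859 in heterozygous HHR and 54651 in SDR lactation. For Gapdh the 3′ probe set read higher than the 5′ one, as it does where RNA is degraded or copied incompletely, and their ratio was 1.60, 2.30, 1.93 and 1.17 in the same order, while for beta-actin it was 4.80, 5.91, 7.86 and 4.60. The part of RNA quality in the differences below was not tested. A fold between 2 arrays is called past a threshold of 2-fold, or of 1.5-fold as a looser rule, and the share of all measured genes past the same threshold is given as the background.

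The lysosomal genes split in SDR involution. The membrane proteins Lamp1, Lamp2 and Scarb2 and a few hydrolases had at least 2-fold more signal than in SDR lactation, most of the proton pump lay within 1.5-fold, as most measured genes did, and a smaller set led by the hydrolase Gusb had less. Of the 36 genes, 8 were at least 2-fold higher (22.2%, against 10.3% of 11014 measured genes) and 4 were at least 2-fold lower (11.1%, against 8.94%). Among the 6591 genes at least as bright as the dimmest of the 36, 8.83% were higher and 10.4% lower by that threshold. At 1.5-fold the counts were 9 higher, against a background of 23.5%, and 4 lower, against 18%. The 36 genes had a median log2 difference of -0.04, beside 0.08 over all measured genes. Of them 18 were above 0 and 18 below, beside 5979 and 5031 of all measured genes. Gene by gene they ran from 3.22-fold lower to 4.01-fold higher, and 23 of the 36 lay within 1.5-fold, as did 58.5% of all measured genes. Over all genes the calls were 1129 higher and 985 lower, and when each array was centred on its median they were 853 higher and 1237 lower, while the counts among the 36 were again 8 and 4.

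**Figure D1:**
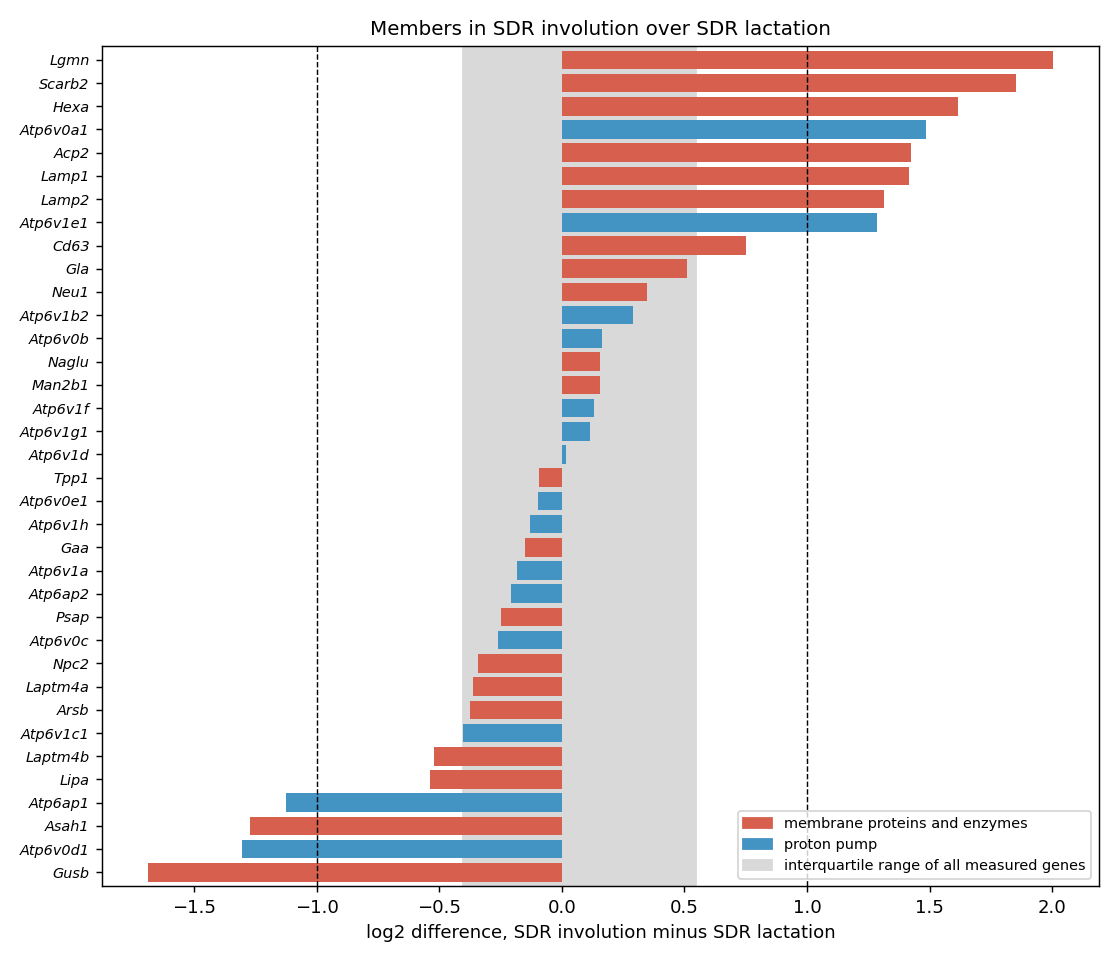
Log2 difference between SDR involution and SDR lactation (horizontal axis) for each of the 36 genes, sorted from the highest at the top. Red bars are membrane proteins and enzymes, blue bars are proton pump genes, dashed lines mark 2-fold, and the grey band is the interquartile range of all measured genes. The bars run from Lgmn, 4.01-fold higher, to Gusb, 3.22-fold lower, and 11 of the 15 proton pump genes lie within 1.5-fold.

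Of the 6 membrane proteins 4 had more signal in involution than in SDR lactation and 2 had less. Lamp1 and Lamp2, the heavily glycosylated proteins that line the inside of the lysosomal membrane, had their highest signal in involution. Lamp1 had a signal of 10806 in SDR involution, 5275 in homozygous HHR, 4480 in heterozygous HHR and 4050 in SDR lactation, and was 2.67-fold higher in involution than in SDR lactation. Its other 2 probe sets were below the floor in all 4 arrays, and averaging all 3 brings the log2 difference to 0.47. Both values rest on 1 informative probe set. Lamp2, which also serves chaperone-mediated autophagy, had 11200 in SDR involution, 7525 in homozygous HHR, 5039 in heterozygous HHR and 4511 in SDR lactation. Its 2.48-fold difference between involution and SDR lactation was shared by its second probe set, whose log2 difference was 1.22 beside 1.31.

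Scarb2 (LIMP-2), the receptor that carries beta-glucocerebrosidase to the lysosome, had 4292 in SDR involution, 1520 in homozygous HHR, 1011 in heterozygous HHR and 1190 in SDR lactation. It was 3.61-fold higher in involution than in SDR lactation, and 226 of 11014 measured genes had a larger increase. Cd63, a tetraspanin of late endosomes and lysosomes, had 5628 in SDR involution, 3546 in homozygous HHR, 2852 in heterozygous HHR and 3340 in SDR lactation, a 1.68-fold difference from SDR lactation. For all 4 of these genes involution stood above each of the 3 lactation arrays.

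The remaining pair of membrane proteins, Laptm4a and Laptm4b, which span the membrane of late endosomes and lysosomes, did not share this pattern. Laptm4a had 7104 in SDR involution, 5360 in homozygous HHR, 4945 in heterozygous HHR and 9133 in SDR lactation, so that SDR lactation was the highest of the arrays. Laptm4b was 1.44-fold lower in involution than in SDR lactation (8409 against 12079). Over the 6 membrane proteins the log2 differences of involution from SDR lactation had a median of 1.03, and 3 genes passed 2-fold, all upward.

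Tfeb and its relatives, which switch on lysosomal genes, bind palindromic DNA elements built on the letters CACGTG. RefSeq promoter windows, from 250 bases before to 50 bases after the gene start on build GRCr8, were found for 28 of the 36 genes. The stretches that hold the element upstream of the start are printed because they show which of these genes carry it, on the gene's own strand and with CACGTG and a flanking T or A of the longer TCACGTGA form in capitals.
Lamp1, chr16:83075086-83075256, minus strand: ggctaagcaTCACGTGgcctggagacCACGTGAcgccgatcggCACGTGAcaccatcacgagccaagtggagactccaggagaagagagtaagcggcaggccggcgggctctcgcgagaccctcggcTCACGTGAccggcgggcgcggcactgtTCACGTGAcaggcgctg
Atp6v0d1, chr19:50357275-50357320, minus strand: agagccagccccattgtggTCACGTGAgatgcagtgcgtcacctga
Gaa, chr10:105028268-105028313, plus strand: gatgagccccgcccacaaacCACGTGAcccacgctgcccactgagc
Cd63, chr7:1921934-1921979, plus strand: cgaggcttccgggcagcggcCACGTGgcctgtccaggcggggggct

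Lamp1 held 5 copies of CACGTG, the first at position -183 and the last at position -38 from the gene start, of which the 2 nearest the start, at -65 and -38, had the full 8-letter form TCACGTGA. Atp6v0d1 had 1 full copy at position -52. Atp6v0e1 also had 1 full copy, 25 bases after its start. On either strand CACGTG occurred in 5 of the 28 windows (17.9%), TCACGTG in 4 (14.3%) and TCACGTGA in 3 (10.7%), against 6.63%, 3.41% and 0.86% of 27457 windows in all. In the windows of 39 other lysosomal and proton pump genes the shares were 20.5%, 20.5% and 10.3%, so they are not particular to this list. The shorter motifs are contained in the longer ones, so these counts overlap. The 3 genes with the full form did not move together in involution, as Lamp1 was 2.67-fold higher, Atp6v0d1 was 2.47-fold lower and Atp6v0e1 was 1.07-fold lower than in SDR lactation. Scarb2, Lgmn, Acp2, Lamp2, Atp6v0a1 and Atp6v1e1, all at least 2-fold higher in involution than in SDR lactation, had none of these motifs in their windows. Hexa had no entry. A match or its absence describes these letters alone and says nothing of a factor.

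By the probe set that stands for each gene, the enzyme gene Lgmn had the largest difference of the 36. Lgmn, the asparaginyl endopeptidase legumain, which also processes cathepsins, had 3996 in SDR involution, 1172 in homozygous HHR, 766 in heterozygous HHR and 996 in SDR lactation. It was 4.01-fold higher in involution than in SDR lactation, with 161 of 11014 genes showing a larger increase. Its other probe set was below the floor in all 4 arrays, and with both averaged the log2 difference was 1.002, below that of Scarb2. Acp2, the lysosomal acid phosphatase, had 1153 in SDR involution, 347 in homozygous HHR, 221 in heterozygous HHR and 430 in SDR lactation, a 2.68-fold difference from SDR lactation. Tpp1, the tripeptidyl peptidase lost in a form of neuronal ceroid lipofuscinosis, was instead set apart by the heterozygous array, with 2569 in SDR involution, 2499 in homozygous HHR, 1383 in heterozygous HHR and 2737 in SDR lactation. For Lgmn and Acp2 the involution array was more than 2-fold above each lactation array, while for Tpp1 it was close to the homozygous HHR and SDR arrays of lactation.

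The hydrolases of glycans went both ways. Hexa, the alpha subunit of beta-hexosaminidase, had 4982 in SDR involution, 2190 in homozygous HHR, 1703 in heterozygous HHR and 1626 in SDR lactation, and was 3.06-fold higher in involution than in SDR lactation. Gusb, beta-glucuronidase, had 1405 in SDR involution, 3704 in homozygous HHR, 4006 in heterozygous HHR and 4528 in SDR lactation, and was 3.22-fold lower. Hexa and Gusb thus stood outside the range of the lactation arrays on opposite sides.

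Gla, alpha-galactosidase A, had 747 in SDR involution, 434 in homozygous HHR, 367 in heterozygous HHR and 525 in SDR lactation. Neu1, the sialidase that trims terminal sialic acids, had 537 in SDR involution, 457 in homozygous HHR, 326 in heterozygous HHR and 421 in SDR lactation. Both were highest in involution by less than 1.5-fold over SDR lactation, although their second probe sets passed that fold, with log2 differences of 0.72 beside 0.51 for Gla and 1.07 beside 0.35 for Neu1. Arsb, the sulfatase of dermatan sulfate, had 561 in SDR involution, 977 in homozygous HHR, 886 in heterozygous HHR and 728 in SDR lactation, the lowest value being that of involution. The other members of this group, the acid alpha-glucosidase Gaa, the alpha-mannosidase Man2b1 and the heparan sulfate enzyme Naglu, differed by at most 1.36-fold between the highest and the lowest of the 4 arrays.

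All 4 genes of lipid handling had less signal in involution than in SDR lactation, with a median log2 difference of -0.44. Asah1, acid ceramidase, had 867 in SDR involution, 2912 in homozygous HHR, 1276 in heterozygous HHR and 2094 in SDR lactation, and was 2.41-fold lower in involution than in SDR lactation. Its second probe set was lower as well, with a log2 difference of -1.05 beside -1.27. Lipa, the acid lipase that frees cholesterol from its esters, had 3362 in SDR involution, 4421 in homozygous HHR, 5058 in heterozygous HHR and 4880 in SDR lactation. Npc2, the cholesterol-binding protein of the lumen, and Psap, the precursor of the saposins that activate sphingolipid hydrolases, were 1.27-fold and 1.19-fold lower in involution than in SDR lactation. Of these 4 genes only Asah1 passed 2-fold.

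**Figure D2:**
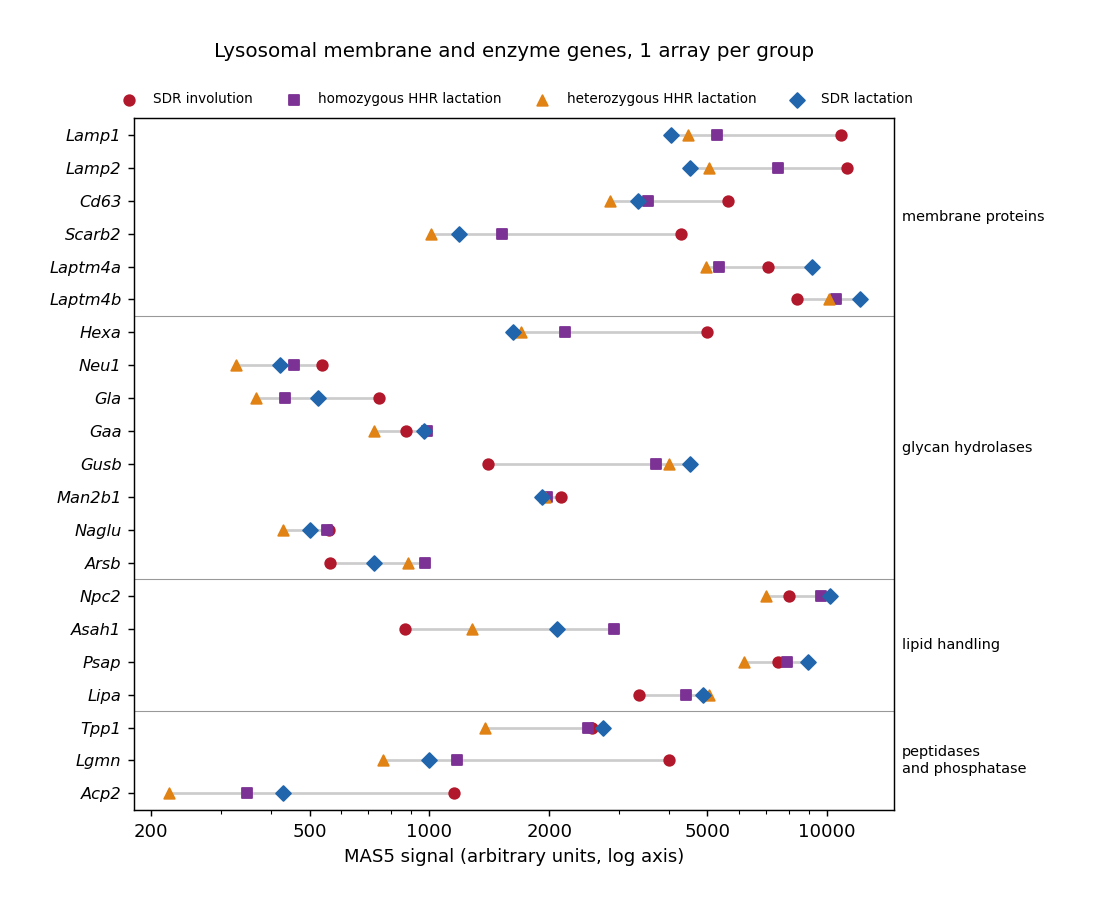
MAS5 signal (horizontal axis, log scale, arbitrary units) of the 21 membrane protein and enzyme genes in each of the 4 arrays. Each symbol is 1 array and a grey line joins the lowest and the highest. The involution array lies apart on the right for Lamp1, Scarb2, Hexa, Lgmn and Acp2 and on the left for Gusb, and the heterozygous array is the lowest of the 3 lactation arrays for 14 of the 21 genes.

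Of the 15 proton pump genes 11 lay within 1.5-fold between SDR involution and SDR lactation, and of the 15 genes of enzymes and lipid handling 10 did. The pump had a median log2 difference of -0.10, beside -0.09 for those genes. Of the V1 sector 7 of 8 genes lay within 1.5-fold. The exception was Atp6v1e1, the E subunit of a peripheral stalk that holds the V1 sector in place, with 5226 in SDR involution, 1635 in homozygous HHR, 1704 in heterozygous HHR and 2146 in SDR lactation. It was 2.44-fold higher in involution than in SDR lactation and was the only pump gene more than 2-fold above all 3 lactation arrays.

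By the probe sets that stand for them, the other V1 subunits spanned less than 2-fold over the 4 arrays. Atp6v1b2, a B subunit of the ATP-splitting head, had 2626 in SDR involution, 1934 in homozygous HHR, 1579 in heterozygous HHR and 2147 in SDR lactation. For Atp6v1a, the catalytic A subunit, the highest of the 4 arrays was 1.25-fold above the lowest, and for Atp6v1f, part of the rotor shaft, it was 1.11-fold. Atp6v1c1, Atp6v1d, Atp6v1g1 and Atp6v1h, which form the stalks and shaft or govern assembly, spanned between 1.27-fold and 1.38-fold. For Atp6v1a and Atp6v1b2 the second probe set went the other way in involution over SDR lactation, with log2 differences of 0.85 beside -0.18 for Atp6v1a and -0.49 beside 0.29 for Atp6v1b2, so that neither has a settled direction. The second probe set of Atp6v1b2 also had the wider range, with 1356 in SDR involution, 690 in homozygous HHR, 642 in heterozygous HHR and 1900 in SDR lactation.

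Within the V0 sector 2 genes passed 2-fold between involution and SDR lactation, in opposite directions. Atp6v0a1, the a1 isoform of the large subunit through which protons pass, had 982 in SDR involution, 598 in homozygous HHR, 730 in heterozygous HHR and 351 in SDR lactation, and was 2.80-fold higher in involution than in SDR lactation. Atp6v0d1, which couples the rotor to V1, had 2983 in SDR involution, 5261 in homozygous HHR, 3933 in heterozygous HHR and 7357 in SDR lactation, and was 2.47-fold lower in involution. SDR lactation was thus the lowest of the 4 arrays for Atp6v0a1 and the highest for Atp6v0d1. Involution lay beyond every lactation array for both genes, but only 1.34-fold above heterozygous HHR for Atp6v0a1 and 1.32-fold below it for Atp6v0d1.

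Atp6v0b, a proteolipid of the rotor ring, had 3274 in SDR involution, 2001 in homozygous HHR, 2329 in heterozygous HHR and 2923 in SDR lactation. Atp6v0e1, a small subunit of V0, had 2658 in SDR involution, 2532 in homozygous HHR, 1858 in heterozygous HHR and 2840 in SDR lactation. Neither differed by 1.5-fold between involution and SDR lactation. Atp6v0c, the main proteolipid, had 5821 in SDR involution, 7124 in homozygous HHR, 6838 in heterozygous HHR and 6970 in SDR lactation, with 3 lactation values within 1.04-fold of each other.

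The accessory proteins, which assist assembly of the pump and its targeting, were both lower in involution. Atp6ap1 had 2424 in SDR involution, 5070 in homozygous HHR, 4804 in heterozygous HHR and 5284 in SDR lactation. It was 2.18-fold lower in involution than in SDR lactation, while the 3 lactation arrays lay within 1.10-fold of each other. Atp6ap2, the prorenin receptor, was 1.15-fold lower by the probe set that stands for it, and its dimmer probe set had a log2 difference of -1.18.

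**Figure D3:**
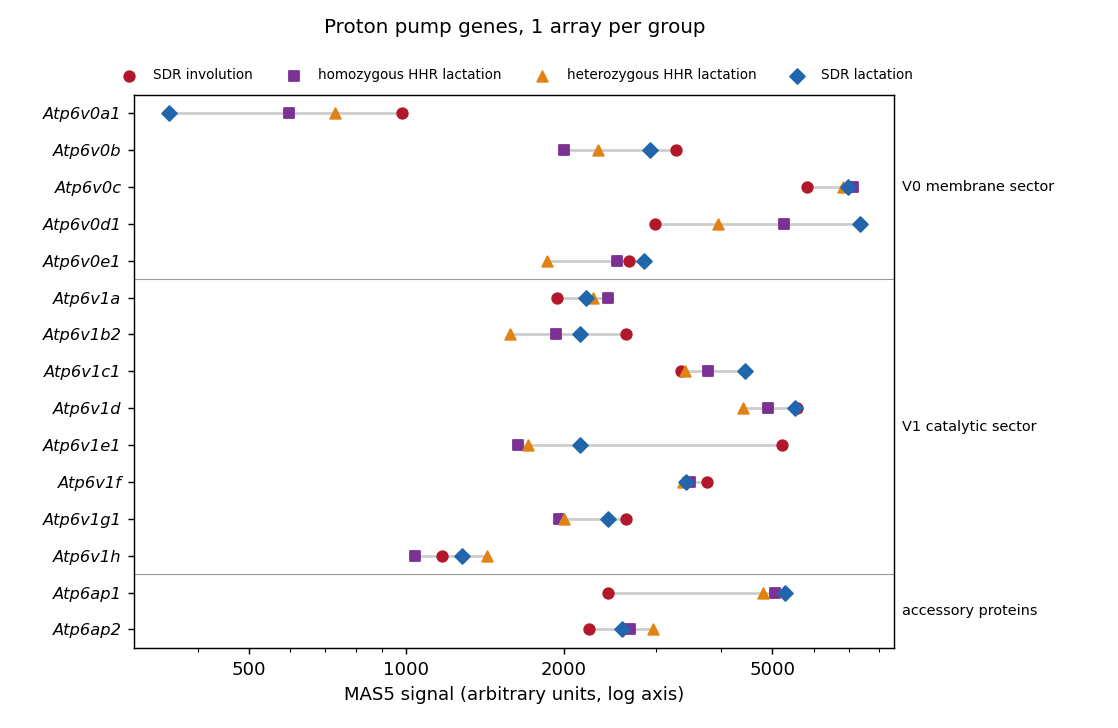
MAS5 signal (horizontal axis, log scale, arbitrary units) of the 15 proton pump genes in each of the 4 arrays, grouped into the V0 sector, the V1 sector and the accessory proteins. Each symbol is 1 array and a grey line joins the lowest and the highest. Most symbols of a gene lie close together, apart from involution for Atp6v1e1 and Atp6ap1 and the spread of all 4 arrays for Atp6v0a1 and Atp6v0d1.

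Of the 13 genes with more than 1 probe set, 11 had a further one above the floor. In involution over SDR lactation 8 of these 11 went the same way as the probe set that stands for the gene. The 3 that did not were those of Atp6v1a, Atp6v1b2 and Man2b1, none of which passed 1.5-fold by the probe set that stands for it. The further probe sets of Lamp1 and Lgmn were at the floor in all 4 arrays and give no second reading. Among the 12 genes past 2-fold in this pair only Lamp2 and Asah1 had such a reading, and it went the same way for both.

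**Figure D4:**
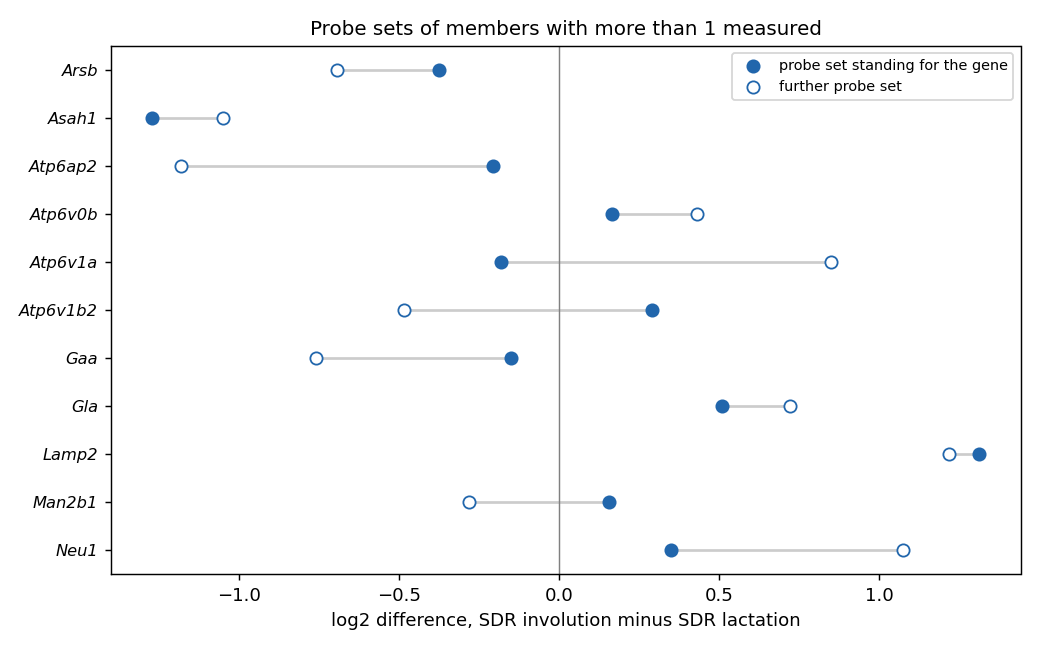
Log2 difference between SDR involution and SDR lactation (horizontal axis) for the 11 genes with more than 1 probe set above the floor. Filled circles are the probe sets that stand for the gene, open circles the further ones. Circles lie on opposite sides of 0 for Atp6v1a, Atp6v1b2 and Man2b1, and the pairs of Lamp2 and Asah1 lie close together beyond 1.2 and below -1.0.

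Because SDR lactation enters each difference above, involution was also set against the HHR arrays, which differ from it in strain as well as in stage. These comparisons share the involution array with the first one. Against homozygous HHR, 6 of the 36 genes were at least 2-fold higher in involution (background 7.76%) and 3 at least 2-fold lower (7.67%), and at 1.5-fold 10 were higher (19.8%) and 5 lower (17.1%). Against heterozygous HHR, 8 were at least 2-fold higher (11%) and 1 lower (9.57%), and at 1.5-fold 12 were higher (23.8%) and 4 lower (19.4%). The median log2 differences were 0.11 and 0.36, beside 0.06 and 0.06 over all measured genes. With median centring the value for homozygous HHR turned to -0.04, and the calls over all genes were 619 higher and 1101 lower, against 853 and 844 as reported. For heterozygous HHR centring gave 944 higher and 1290 lower, against 1210 and 1057. The largest gap from heterozygous HHR was that of Lgmn and Acp2, at 5.21-fold each.

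A count against all 3 lactation arrays at once was added after the values were seen. In 18 of the 36 genes involution was above every lactation array (36.4% of all genes) and in 11 it was below every one (27.5%). At least 2-fold above all 3 were 6 genes, or 16.7%, beside 3.88% of all genes, namely Lamp1, Scarb2, Hexa, Lgmn, Acp2 and Atp6v1e1. With each gene read as the mean of its probe sets the count was 4, because Lamp1 and Lgmn then fell short of 2-fold. At least 2-fold below all 3 was 1 gene, or 2.78%, beside 4.19%, and that gene was Gusb. With median centring this last count was 2. The lactation arrays are of different genotypes, so their spread is not an error of replicates.

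Within lactation the highest of the 3 arrays was under 1.5 times the lowest for 26 of the 36 genes (beside 57.2% of 11122 genes). It was at least 2 times the lowest for 2 (14.9% of all genes), Atp6v0a1 and Asah1. Further probe sets passed 2-fold in homozygous HHR over SDR for 3 genes, with log2 differences of -1.46 for Atp6v1b2, -1.32 for Atp6ap2 and -1.21 for Gaa. The probe sets that stand for these genes had -0.15, 0.06 and 0.03. Short of 2-fold, the further probe set of Atp6v1a was at 0.64 beside 0.14, that of Gla at -0.62 beside -0.27, and that of Neu1 at 0.50 beside 0.12. In heterozygous HHR over SDR the further probe set of Atp6v1b2 was at -1.57, beside -0.44, and that of Atp6v1a at 0.77, beside 0.04. Homozygous HHR had 0 genes at least 2-fold higher than SDR (background 3.77%) and 0 at least 2-fold lower (2.72%). At 1.5-fold 2 genes were higher in homozygous HHR (12.2%), Atp6v0a1 at 1.70-fold and Lamp2 at 1.67-fold, and 1 was lower (9.99%), Laptm4a at 1.70-fold. The median log2 difference was -0.06, beside 0.02 over all genes.

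Heterozygous HHR had 1 gene at least 2-fold higher than SDR (4.58%), Atp6v0a1 at 2.08-fold, and 0 at least 2-fold lower (4.15%). With the floor added as a pseudocount Atp6v0a1 had a log2 difference of 0.89, and the count was 0. At 1.5-fold that gene alone was higher (13.8%) and 6 were lower (13%), which is 16.7% of the genes. The 6 were Tpp1 at 1.98-fold, Acp2 at 1.94-fold, Atp6v0d1 at 1.87-fold, Laptm4a at 1.85-fold, Asah1 at 1.64-fold and Atp6v0e1 at 1.53-fold. The median log2 difference was -0.27, beside 0.01 over all genes. Lower than in SDR were 26 of the 36 genes, beside 5333 of 10876 measured genes. Both HHR arrays were set against the same SDR array, from which Atp6v0a1 was higher and Laptm4a lower in each.

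Between the HHR genotypes, 28 of the 36 genes had more signal in the homozygous array, beside 5458 of 10877 measured genes. The median log2 difference was 0.20, beside 0.00 over all genes. Only Asah1 was at least 2-fold higher (background 3.76%), at 2.28-fold, and 0 genes were at least 2-fold lower (3.14%). At 1.5-fold 5 genes were higher (12.3%) and 0 lower (11%). Beside Asah1 these were Tpp1 at 1.81-fold, Acp2 at 1.57-fold, Lgmn at 1.53-fold and Scarb2, just past the threshold, so that none was a pump subunit. The second probe set of Asah1 had a log2 difference of 0.46 beside 1.19, and their mean, 0.83, was short of 2-fold. The proton pump had a median of 0.06 and the other genes one of 0.36, with 19 of those 21 higher in the homozygous array. In this pair 4 of the 11 further probe sets above the floor went the other way, those of Gaa, Gla, Man2b1 and Atp6v1a. With each gene read as the mean of its probe sets, the median of the 36 genes was 0.10.

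The heterozygous array was the lowest of the 3 lactation arrays for 22 of the 36 genes, beside 33.8% of all genes. SDR was the lowest for 8 (33.5%) and homozygous HHR for 6 (32.8%). Among other genes of the pathway the heterozygous array was the lowest for 8 of 10 lysosomal membrane proteins and 8 of 10 genes of the Tfeb family and its regulators. The count was 10 of 18 for autophagy, 6 of 12 for enzyme sorting, 9 of 20 for further hydrolases and 1 of 4 for further pump subunits. The heterozygous array was also the lowest for 11 of 14 macrophage markers, 6 of 8 fibroblast markers and 6 of 10 luminal epithelial markers. It was the lowest for 0 of 6 milk protein genes, 1 of 6 adipocyte markers and 0 of 3 neutrophil markers. The part of these cell types in the low lysosomal signals was not tested.

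The differences of homozygous from heterozygous HHR and of involution from SDR lactation rest on separate arrays and can be set side by side. Over the 36 genes Pearson's r was 0.12 and Spearman's rho 0.22, beside 0.23 and 0.15 over 10496 genes measured in both pairs, and genes are not independent replicates. Of the 36 genes, 14 were higher in both homozygous HHR and involution, 4 were lower in both, 14 were higher in homozygous HHR but lower in involution, and 4 the reverse. The sign was thus shared by 50% of the 36 genes, beside 54.9% of all genes. Lgmn, Scarb2, Acp2, Lamp2 and Hexa were higher in both, and Asah1, the highest of the 36 in homozygous over heterozygous HHR, was among the lowest in involution.

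**Figure D5:**
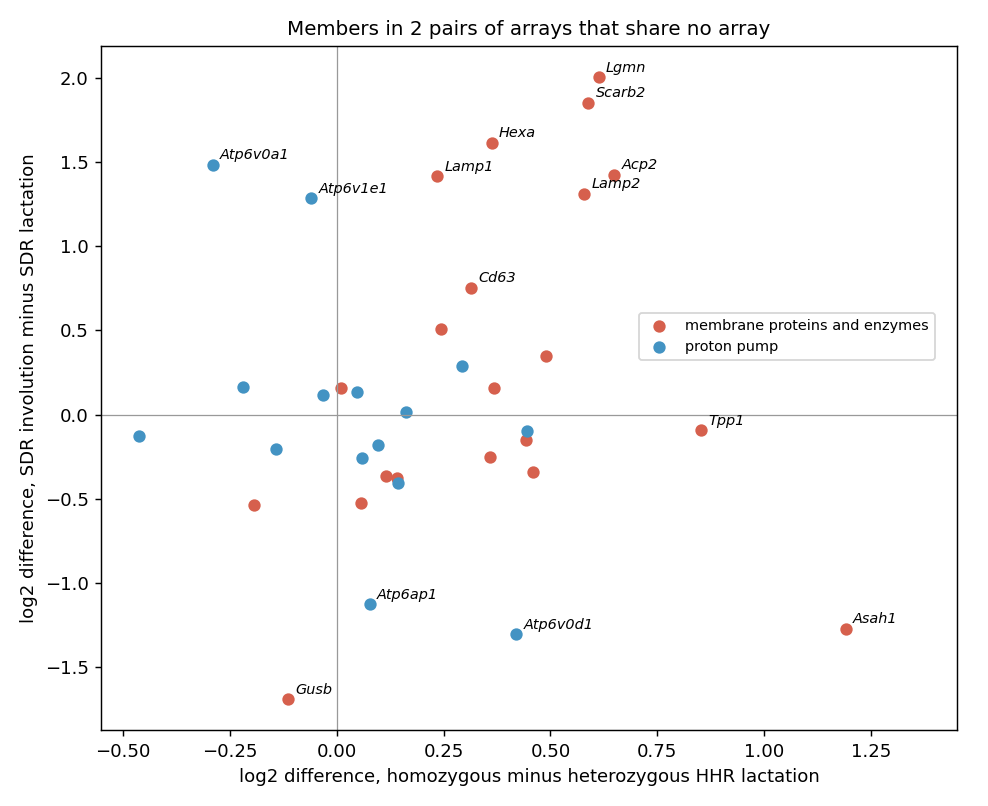
Log2 difference between homozygous and heterozygous HHR in lactation (horizontal axis) against that between SDR involution and SDR lactation (vertical axis), 1 point for each of the 36 genes. Blue points are proton pump genes and red points the other genes. The upper right field holds 14 genes, among them Lgmn and Scarb2, and Asah1 lies farthest to the lower right.

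Markers of cells rich in lysosomes were read beside these results. The summed signal of the 15 macrophage markers on the array was 42822 in SDR involution, 33933 in homozygous HHR, 17535 in heterozygous HHR and 28464 in SDR lactation, and Itgam was at the floor in all 4 arrays. Much of the sum in involution came from Cd14, which in the mouse is also made by mammary epithelium, with 20076 in SDR involution, 16494 in homozygous HHR, 4533 in heterozygous HHR and 5985 in SDR lactation. The 14 measured macrophage markers had a median log2 difference of 0.06 between involution and SDR lactation, with 1 at least 2-fold higher and 0 lower. Cd68, a lysosomal glycoprotein of macrophages, was 1.04-fold higher in involution, with 703 against 675 in SDR lactation.

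Of 10 luminal epithelial markers 4 passed 2-fold upward and 2 downward in involution, with a summed signal of 121187 in SDR involution, 79365 in homozygous HHR, 63946 in heterozygous HHR and 69592 in SDR lactation. Krt19, a luminal keratin, was 4.84-fold higher and Krt8, the keratin of simple epithelia, was 4.37-fold higher in involution than in SDR lactation. Muc1, the epithelial mucin, was 6.51-fold lower, the widest difference of the list. The neutrophil gene S100a8 had 2809 in SDR involution and was at the floor in SDR lactation, a difference of at least 30.7-fold. S100a9, also at the floor in SDR lactation, was at least 15.4-fold higher. The other neutrophil markers on the array were too weak to give a reading of such a difference. Csf3r had 122 in SDR involution, close to the floor, and Cxcr2 and Camp were at the floor in all 4 arrays. The 8 fibroblast markers summed to 62757 in SDR involution and 75558 in SDR lactation, with 0 past 2-fold, and 2 of 6 measured adipocyte markers were at least 2-fold lower, led by the fatty acid binding protein Fabp4 at 4.66-fold. The part of each cell type in the lysosomal differences was not tested.

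Other genes of the pathway are counted in involution over SDR lactation beside the same background of 10.3% higher, 8.94% lower and a median of 0.08. Among 20 further lysosomal hydrolases and their helpers 4 passed 2-fold upward and 1 downward, and the median log2 difference was 0.20. Pla2g15, a lysosomal phospholipase, was 2.81-fold higher, Sumf1, which activates sulfatases, was 2.72-fold higher, Dnase2, the acid nuclease, was 2.19-fold higher and Hgsnat, an acetyltransferase of heparan sulfate breakdown, was 2.13-fold higher. Of 11 further lysosomal membrane proteins 3 were at least 2-fold higher and 1 lower. Tmem192 was 3.20-fold higher, the amino acid sensor Slc38a9 was at least 3.11-fold higher than its floor value in SDR lactation, and Laptm5, a membrane protein of blood cells, was 2.44-fold lower.

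Of the 4 further pump subunits measured only Tcirg1, the a3 isoform of the large V0 subunit, passed 2-fold in involution, at 1149 against 556 in SDR lactation or 2.07-fold. The a1 and a3 isoforms were thus both more than 2-fold higher, while Atp6v0a2, the a2 isoform, had 866 in SDR involution and 815 in SDR lactation. The other subunits of the list on the array, Atp6v0a4, Atp6v1b1, Atp6v1g2 and Atp6v1g3, were at the floor in all 4 arrays.

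Among 12 genes that sort enzymes to the lysosome 0 were at least 2-fold higher in involution and 1 was lower, the sorting receptor Sort1, with 1560 in SDR involution against 3580 in SDR lactation or 2.29-fold. None of 10 measured genes of the Tfeb family and its regulators passed 2-fold, and Tfeb itself had 615 in SDR involution, 645 in homozygous HHR, 527 in heterozygous HHR and 780 in SDR lactation. Of 18 autophagy genes 1 passed 2-fold, upward, and the median was 0.31. That gene was Wipi1, which binds phosphoinositides on forming autophagosomes, with 3705 in SDR involution, 2074 in homozygous HHR, 950 in heterozygous HHR and 1002 in SDR lactation.

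Between homozygous and heterozygous HHR 3 of the 18 autophagy genes were at least 2-fold higher in homozygous HHR (background 3.76%) and 0 lower (3.14%). Gabarapl1, a protein of the autophagosome membrane, was 3.79-fold higher, with 786 in homozygous HHR, 208 in heterozygous HHR and 788 in SDR lactation. Ulk1, the kinase that starts autophagy, was 2.24-fold higher and Wipi1 was 2.18-fold higher. Tfec, a relative of Tfeb, was 2.57-fold higher (261 against 102), and Cln3, a lysosomal membrane protein, was 3.23-fold higher (795 against 246). The heterozygous value of Tfec lay close to the floor of 91.5. For Gabarapl1, Ulk1, Wipi1, Tfec and Cln3 the heterozygous array was also below SDR lactation, though for Wipi1 only slightly (950 against 1002). These genes were named because heterozygous HHR was at least 2-fold below homozygous HHR, so their order in lactation is partly set by that choice. Over all 18 autophagy genes the heterozygous array was the lowest of the lactation arrays for 10.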

How the data were processed

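Mammary gland RNA of rats was hybridised to 1 array in each of 4 groups, assigned from the labels. The deposited values are MAS5 signals, that is, linear intensity values with 1 figure per probe set. The software is named in the submitters' processing notes, with no version or settings, and detection calls were not used here. Means trimmed by 2% at each end were 500.2 in all 4 arrays. Depth has no counterpart on arrays, and their number limits the precision.

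Signals under the 40th percentile (91.5) of the 31042 probe sets other than the 57 controls were set to that floor, and log2 was then taken. Each gene is read from the probe set with the highest mean log2, and a pair of arrays counts genes above the floor on either side. Gene names are the platform's, and the identifiers of all 50 probe sets of the 36 genes matched the genes of RefSeq on GRCr8. Promoter sequences are RefSeq's, of GRCr8. No test was possible with 1 array per group. The steps were tested on simulated data (Python 3.11.15, pandas 2.3.3, numpy 2.4.6).

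The 36 genes and all lists were chosen with earlier results of these data known. Values in all 4 arrays are given for each of the 22 genes past 1.5-fold in any of the 6 pairs, and for Atp6v0c. From each further pathway list up to 4 genes are named, those with the largest difference past 2-fold in involution over SDR lactation or homozygous over heterozygous HHR. From each marker list up to 3 genes are named, with no rule of size, and these were picked after their values were seen. Tfeb, Atp6v0a2, Cd68 and the genes at the floor in all arrays were named outside that rule, after their values were seen. There were 7 alternatives, namely median centring, quantile normalization, floors at the 25th and 55th percentile, the floor as a pseudocount, averaging a gene's probe sets, and leaving out probe sets whose suffix marks shared probes.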

Additional observations from a re-analysis of the deposited data

How the results depend on the processing

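No alternative stands in for replicates, array noise is unknown, and the floor hides weak signals. No paired analysis was possible because each group holds a single array. Of the counts and medians of the 36 genes, 131 values under an alternative kept to the reported one while 8 moved and 1 reversed. A count kept to it where it was within 1.5-fold, and a median log2 difference where it was within 0.1. Kept values were therefore not all unchanged. Median centring, which shifted the median log2 difference of all genes in involution over SDR lactation by -0.14, gave medians of -0.19 for involution over SDR lactation, -0.036 (against 0.11, so reversed) over homozygous HHR and 0.23 over heterozygous HHR. It also gave 1 gene at least 2-fold lower in heterozygous HHR than in SDR, 2 at least 2-fold lower in involution than in heterozygous HHR, and 2 at least 2-fold below all 3 lactation arrays. The mean of all probe sets gave 1 gene lower in heterozygous HHR than in SDR and 0 higher in homozygous than in heterozygous HHR, and the pseudocount gave 0 higher in heterozygous HHR than in SDR. Among values of single genes, 214 stayed on their side of 2-fold and 10 fell short of it. These were those of Lamp1, Lgmn, Gla, Asah1 and Atp6v0a1, with Lamp1 also short of it over homozygous HHR under median centring.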
